A study of Mus musculus with 18 samples.

Results

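AML12 hepatocytes, an established mouse hepatocyte line, were given recombinant mouse serum albumin (rMSA, 600 μM) together with insulin (10 nM) for 24 h and compared with AML12 hepatocytes given vehicle for 24 h, with 3 RNA-seq libraries in each group. The comparison took in every gene that averaged 1 TPM or more in these 6 libraries, which were 10819 of the 15579 genes listed for the line. TPM is a gene's share of all transcripts after division by its length, with all libraries brought to 1 common total. The sample labels give the genotype of all the cells as WT. As background, the AML12 line was raised from the liver of a mouse carrying a transgene for human TGF-alpha, itself a ligand of the epidermal growth factor receptor (EGFR). Cells of every group had been grown with serum, insulin, transferrin, selenium and dexamethasone, and were then washed and kept overnight in serum-free medium before treatment. The study asked how albumin acts on hepatic glucose use and on the signaling below EGFR and the insulin receptor. The series holds 18 samples, among them 3 AML12 libraries given rMSA (600 μM) alone for 24 h, which are used here to test how the combined treatment differed from rMSA without insulin. Its insulin-only libraries and its liver libraries were left out of the comparisons below.

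No source states that the libraries sharing a treatment were separate cultures, so p-values measure the spread between these libraries, which may be technical. Of the 10819 tested genes, 148 had a vehicle mean under 1 TPM and 133 a mean under 1 TPM with rMSA + insulin, and these entered through the group in which they were higher. At the edge of the 1 TPM minimum, Mcc was just inside with 1.26, 1.19 and 1.22 TPM with vehicle and 0.78, 0.67 and 0.88 TPM with rMSA + insulin. Rorb was just outside with 1.11, 0.89 and 1.13 TPM with vehicle and 0.72, 1.03 and 1.1 TPM with rMSA + insulin.

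The label hepatocyte was checked against marker genes. Of 20 hepatocyte markers, 16 were in the table and 10 reached a mean of 1 TPM. The transcription factor gene Hnf4a (110.3, 105 and 108 TPM with vehicle), the keratin gene Krt18, transferrin (Trf, 621, 563 and 601 TPM) and transthyretin (Ttr, 185, 138 and 189.9 TPM) were present. Albumin (Alb) stood at 69.2, 48.2 and 57.3 TPM with vehicle. The urea cycle gene Cps1 was listed at 0 in all 6 libraries, and Cyp2e1, Fgb and Tat stayed under 1 TPM. Krt19, a keratin of bile duct cells, was at 1224, 1298 and 1426 TPM with vehicle. The cells thus carried only some of the defining genes of adult hepatocytes, beside a bile duct keratin.

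Markers of other liver cells were few and low. Of 22 listed for macrophages and leukocytes, 13 were in the table and 3 reached 1 TPM (S100a8, Cd68 and Csf1r), with a summed level of 24.0 to 26.3 TPM with vehicle and 46.5 to 49.8 TPM with rMSA + insulin, most of it S100a8. Ptprc, the pan-leukocyte CD45, was listed at 0 with vehicle and at 0 to 0.03 TPM with rMSA + insulin, while Lyz2 was at 0 to 0.24 TPM. Endothelial markers summed to 2.13 to 2.65 and 3.37 to 4.16 TPM, and none of 15 stellate cell markers reached 1 TPM. TPM keep no read depth, so the precision of a single value is known only from the spread of its replicates. The median gene stood at 19.1 to 20.9 TPM with vehicle and 16.2 to 19.8 TPM with rMSA + insulin, and ribosomal protein genes took 24.3 to 28.0% of TPM over the 6 libraries. In bulk RNA, fewer cells of a type and less RNA per cell cannot be told apart.

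Serum albumin is the main protein of plasma and carries fatty acids, hormones and metals. Insulin acts on hepatocytes through its receptor, the kinase AKT and the FOXO factors, and promotes glucose use, glycogen storage and lipid synthesis. Hepatocytes are also secretory cells of the innate defence: signals through NF-κB and STAT3 raise acute phase proteins and chemokines, interferons raise antiviral genes, and shortage of amino acids or misfolded proteins raises a program driven by the factor ATF4 (the integrated stress response).

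With the combined treatment 14 of 21 tested genes of a mixed acute phase list rose. So did 33 of 43 genes of amino acid synthesis and the integrated stress response, and 20 of 28 sterol synthesis genes fell. Among single genes, the neutrophil attractants Cxcl1, Cxcl2 and Cxcl3, the EGFR ligand Areg and the glutathione transferase Gsta1 rose, and the antiviral Ifit3 and Ifit3b, the adhesion gene Vcam1 and the matrix gene Thbs1 fell. By limma on log2(TPM + 1), 544 genes passed both an adjusted p of 0.05 and a 2-fold difference (log2 of 1 or more either way) and are termed called, 214 higher (1.98% of tested genes) and 330 lower (3.05%). Without the fold threshold 2419 genes (22.4%) rose and 3414 (31.6%) fell. The median log2 fold change of all tested genes was -0.09. With each library centred on its median gene, this median moved to 0.04, the calls to 321 higher and 196 lower, and the genes at an adjusted p under 0.05 to 3463 higher and 2894 lower. Quantile normalization gave 267 higher and 233 lower. Whether more genes were called higher or lower therefore turned on the scaling. On the log2(TPM + 1) scale, fold changes of genes near or below 1 TPM are understated.

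**Figure D1:**
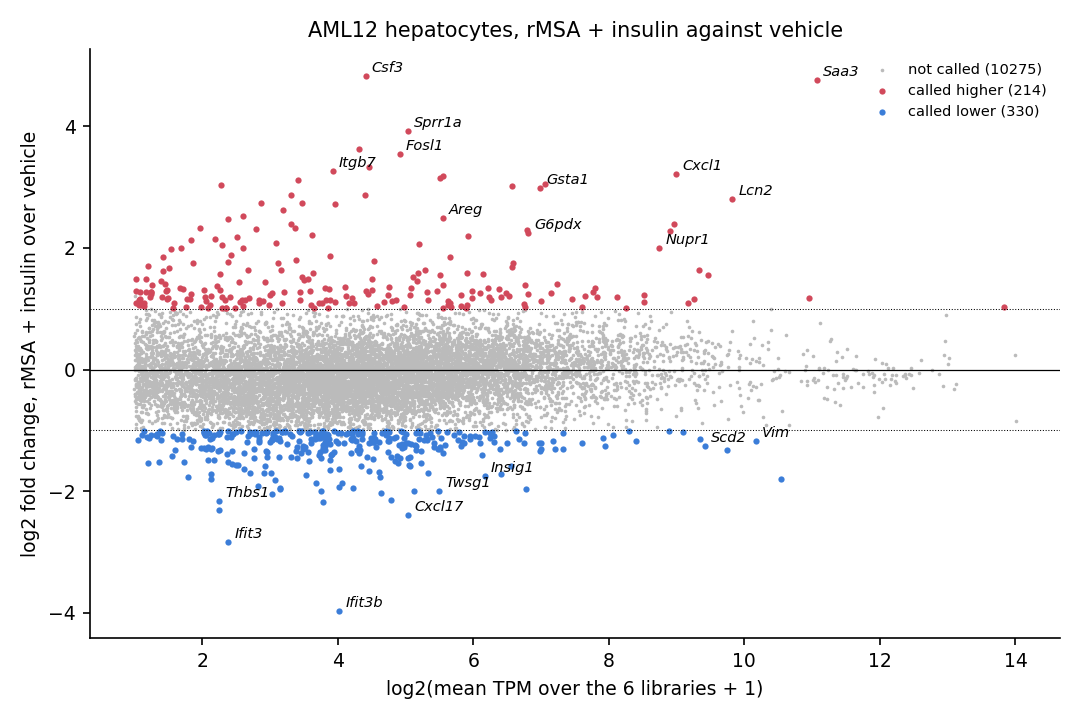
Log2 fold change of each tested gene between rMSA + insulin and vehicle (vertical axis) against log2 of its mean TPM + 1 over the 6 libraries (horizontal axis), with 214 genes called higher, 330 called lower and dotted lines at a log2 fold change of 1 and -1. Saa3, Cxcl1 and Lcn2 combined large rises with high levels, and Ifit3b was farthest below.

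The size of a change went with transcript length. Among 10542 genes with a known longest transcript, split into 5 classes of near-equal size by its length, the median log2 fold change was 0.13 in the class of the shortest transcripts and 0.01, -0.09, -0.18 and -0.34 in the classes above it. The class of the longest transcripts held 114 of the genes called lower and 10 of those called higher, and the class of the shortest 33 and 85. Single libraries differed in the same respect. In the class of the longest transcripts the median distance from the vehicle mean was 0.12, -0.01 and -0.11 in the vehicle libraries, 0.23, 0.11 and -0.14 in the rMSA libraries, and -0.32, -0.54 and -0.17 in the rMSA + insulin libraries. rMSA + insulin library 2 stood farthest out, and without it 220 genes were called higher and 176 lower. Without rMSA + insulin library 3, the calls were 214 higher and 535 lower. With the trend over length removed from each library, 245 genes were called higher and 178 lower. At an adjusted p under 0.05 alone, 3228 of the 10542 genes then rose and 3127 fell. The part of this trend in any single fall was not tested, and counts with the trend removed are given beside many of the lists.

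**Figure D2:**
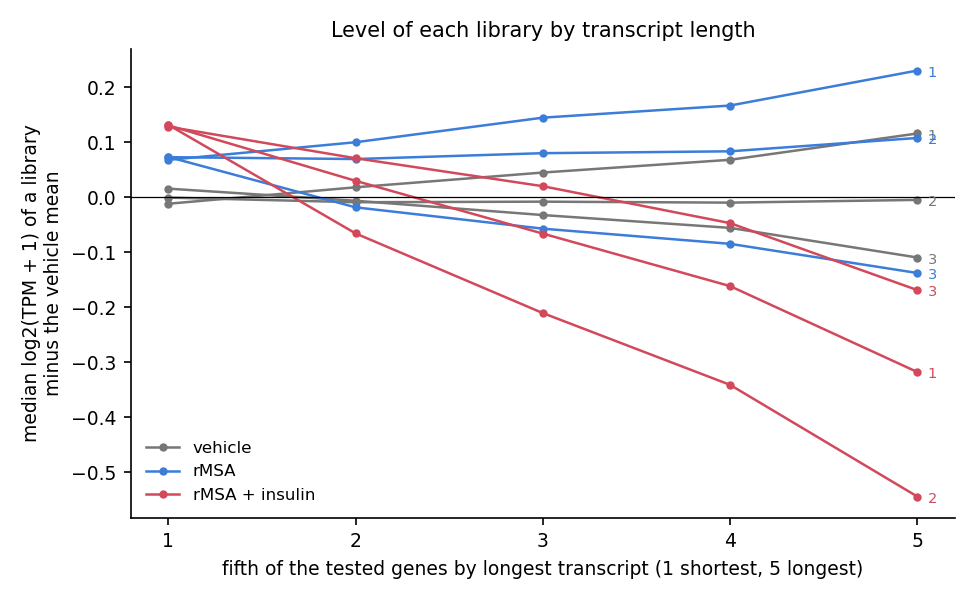
Median difference in log2(TPM + 1) between each library and the vehicle mean (vertical axis) in 5 classes of genes by longest transcript (horizontal axis), 1 line for each of the 3 vehicle, 3 rMSA and 3 rMSA + insulin libraries, numbered at the right. The rMSA + insulin libraries sloped down from 0.13 in the shortest class to between -0.17 and -0.54 in the longest.

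Before the values, short stretches of promoter sequence are shown for a few genes described below, since they hold the letters that the factors of these responses are known to bind. The sequences are from RefSeq (GRCm38.p6), 5′ to 3′ on the strand of the gene, and lie before its start. Capitals mark the match. Cxcl1, Cxcl2 and Cxcl3, neighbours on chromosome 5, carried the NF-κB letters GGGA and TTCC with any 2 bases between them (searched on both strands), with the same GGGAATTTCC, 71, 97 and 73 bases before the start at its first base. Each also matched on the other strand, shifted by 1 base and overlapping the match shown. The stretches are at chr5:90891149-90891208, chr5:90903777-90903836 and chr5:90786003-90786062.
Cxcl1: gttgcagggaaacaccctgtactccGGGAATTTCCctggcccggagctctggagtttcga
Cxcl2: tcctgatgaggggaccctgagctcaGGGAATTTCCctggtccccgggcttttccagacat
Cxcl3: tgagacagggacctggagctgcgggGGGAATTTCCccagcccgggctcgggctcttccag

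Ifit3 and Ifit3b, neighbouring near-copies on chromosome 19, held the letters of the interferon-stimulated response element (GAAA, any 2 bases, GAAA) on the other strand, so that the capitals read TTTC, 2 bases, TTTC, and their stretches, at chr19:34583363-34583392 and chr19:34607759-34607788, were identical.
Ifit3: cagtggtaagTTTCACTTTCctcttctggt
Ifit3b: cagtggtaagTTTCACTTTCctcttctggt

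Nupr1 and Atf3, stress response genes, held the letters of the element bound by C/EBP and ATF4 (TGATG, any base, AA) on the other strand, so that the capitals read TT, 1 base, CATCA, 110 bases before the start, at chr7:126625548-126625605 and chr1:191183411-191183468 on the minus strand.
Nupr1: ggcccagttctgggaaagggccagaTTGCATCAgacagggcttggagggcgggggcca
Atf3: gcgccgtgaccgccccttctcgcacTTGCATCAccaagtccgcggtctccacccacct

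In windows from 250 bases before to 50 after the start, the NF-κB letters were found for 1.63% of 27025 genes. They were found for 4 of 9 tested chemokine genes with a window (Cxcl10 is the fourth) but 0 of 15 genes of the acute phase list. The interferon letters were found for 3.99% of all genes and 11 of 25 interferon-stimulated genes. The C/EBP and ATF4 letters were found for 4.51% of all genes and 11 of 35 stress response genes. A match is a description of these letters and not of a bound factor.

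Csf3 and Saa3 had the highest log2 fold changes on the log2(TPM + 1) scale. Saa3 had the higher of both with the length trend removed (4.73 against 4.71) and with 5 TPM added (4.72 against 3.05). Csf3 (gene 12985, chr11:98700183-98703631), which encodes the cytokine that drives neutrophil production, stood at 0.46, 0.41 and 0.48 TPM with vehicle and 39.4, 41.9 and 38.9 TPM with rMSA + insulin. The groups were far apart, and the log2 fold change was 4.82 (SE 0.09, adjusted p = 7.73e-08 by limma). With rMSA alone its level was 17.6, 21.5 and 17.3 TPM, between both, and the combined treatment was higher than rMSA by a log2 difference of 1.06 (SE 0.10, adjusted p = 1.94e-04 by limma).

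Of 13 tested chemokine genes (of 25 listed), 8 rose, 3 fell and 2 did not pass, with a median log2 fold change of 0.56. Cxcl1, a neutrophil attractant (gene 14825, chr5:90891245-90893121), was at 93.3, 95.6 and 105 TPM with vehicle and 915, 827 and 1004 TPM with rMSA + insulin, a log2 fold change of 3.21 (SE 0.08, adjusted p = 2.32e-07 by limma). Cxcl3 was at 19.4, 21.2 and 18.8 TPM with vehicle and 166, 142 and 196 TPM with both. Cxcl2 was at 1.6, 1.23 and 1.31 TPM with vehicle and 15.7, 14.2 and 19.6 TPM with both. These 3 neighbours have coding sequences that are alike and may share reads. Their log2 fold changes were 3.01 for Cxcl3 (adjusted p = 1.89e-06 by limma) and 2.87 for Cxcl2 (adjusted p = 7.03e-06 by limma). With rMSA alone the 3 genes already stood at means of 669, 148 and 10.9 TPM, and the difference from the combined treatment passed for Cxcl1 (log2 0.45, adjusted p = 0.00202 by limma) and Cxcl2 (log2 0.55, adjusted p = 0.00888 by limma) but not for Cxcl3 (log2 0.18, adjusted p = 0.224 by limma). Cxcl3 passed with median centring (0.38, adjusted p = 0.00166 by limma) and with the length trend removed (0.34, adjusted p = 0.00234 by limma). Cxcl17, an attractant of mucosal surfaces, moved the other way, from 60.3, 51.9 and 50.7 TPM to 11.2, 8.21 and 9.34 TPM (log2 fold change -2.39, SE 0.12, adjusted p = 8.87e-06 by limma).

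Among 11 tested cytokine and growth factor genes of inflammation (of 25 listed), 6 rose and 1 fell, with a median log2 fold change of 0.41. Besides Csf3, Il34, a ligand of the macrophage receptor CSF1R, rose from 7.34 ± 0.899 to 19.9 ± 1.58 TPM (mean ± SD, n = 3 in each group, here and wherever ± is given), and Il1rn, the antagonist of the interleukin 1 receptor, from 4.42 ± 0.448 to 12.1 ± 1.13 TPM. Their log2 fold changes were 1.33 and 1.28 (adjusted p = 9.15e-05 and 1.13e-04 by limma). The member that fell was Clcf1, a ligand of the interleukin 6 family, from 67.7 ± 3.3 to 36.2 ± 4.21 TPM (log2 fold change -0.89, SE 0.09, adjusted p = 2.25e-04 by limma). Il34 and Il1rn were also higher than with rMSA alone, by log2 differences of 0.73 and 0.61 (adjusted p = 0.00147 and 0.00488 by limma).

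Genes listed as acute phase and antimicrobial rose in 14 of 21 tested cases and fell in 5 (46 listed, 39 in the table). The median log2 fold change was 0.46, and 7 were called higher, beside 1.98% of all tested genes. The list is mixed, since it also holds Alb, Ttr, Trf and Rbp4, genes of plasma proteins known to fall in inflammation. Of these, Trf and Rbp4 are among the rises and Ttr among the falls. Saa3, serum amyloid A3 (gene 20210, chr7:46711998-46719615), went from 166, 152 and 141 TPM with vehicle to 3989, 4236 and 4228 TPM with rMSA + insulin. The groups were far apart, with a log2 fold change of 4.75 (SE 0.07, adjusted p = 1.17e-08 by limma). Lcn2, the siderophore-binding lipocalin 2, was at 233, 235 and 207 TPM with vehicle and 1447, 1674 and 1616 TPM with rMSA + insulin, a log2 fold change of 2.81 (SE 0.07, adjusted p = 2.75e-07 by limma). Haptoglobin (Hp), which binds free hemoglobin, was at 27.6, 26.4 and 28.7 TPM with vehicle and 248, 236 and 226 TPM with rMSA + insulin, a log2 fold change of 3.06 (SE 0.06, adjusted p = 7.73e-08 by limma). In these 3 genes the libraries with rMSA alone lay between the other groups, at means of 2286, 914 and 167 TPM, and the combined treatment was higher than rMSA by log2 differences of 0.87, 0.79 and 0.50 (adjusted p = 2.08e-04, 1.13e-04 and 0.00147 by limma). Chil1, a chitinase-like secreted protein, rose from 3.19, 3.32 and 2.54 TPM with vehicle to 33.9, 39.3 and 44.5 TPM with rMSA + insulin (log2 fold change 3.32, SE 0.13, adjusted p = 2.34e-06 by limma), and its difference from rMSA alone (33.7 TPM on average) did not pass (log2 0.21, SE 0.12, adjusted p = 0.163 by limma). It did with median centring (0.41, adjusted p = 0.00561 by limma) and quantile normalization (0.33, adjusted p = 0.0117 by limma). S100a8, an antimicrobial subunit of calprotectin, was at 16.5 TPM with vehicle, 64.3 TPM with rMSA and 37.4 TPM with both, so that the combined level was lower than that with rMSA (log2 difference -0.76, SE 0.09, adjusted p = 6.32e-04 by limma).

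**Figure D3:**
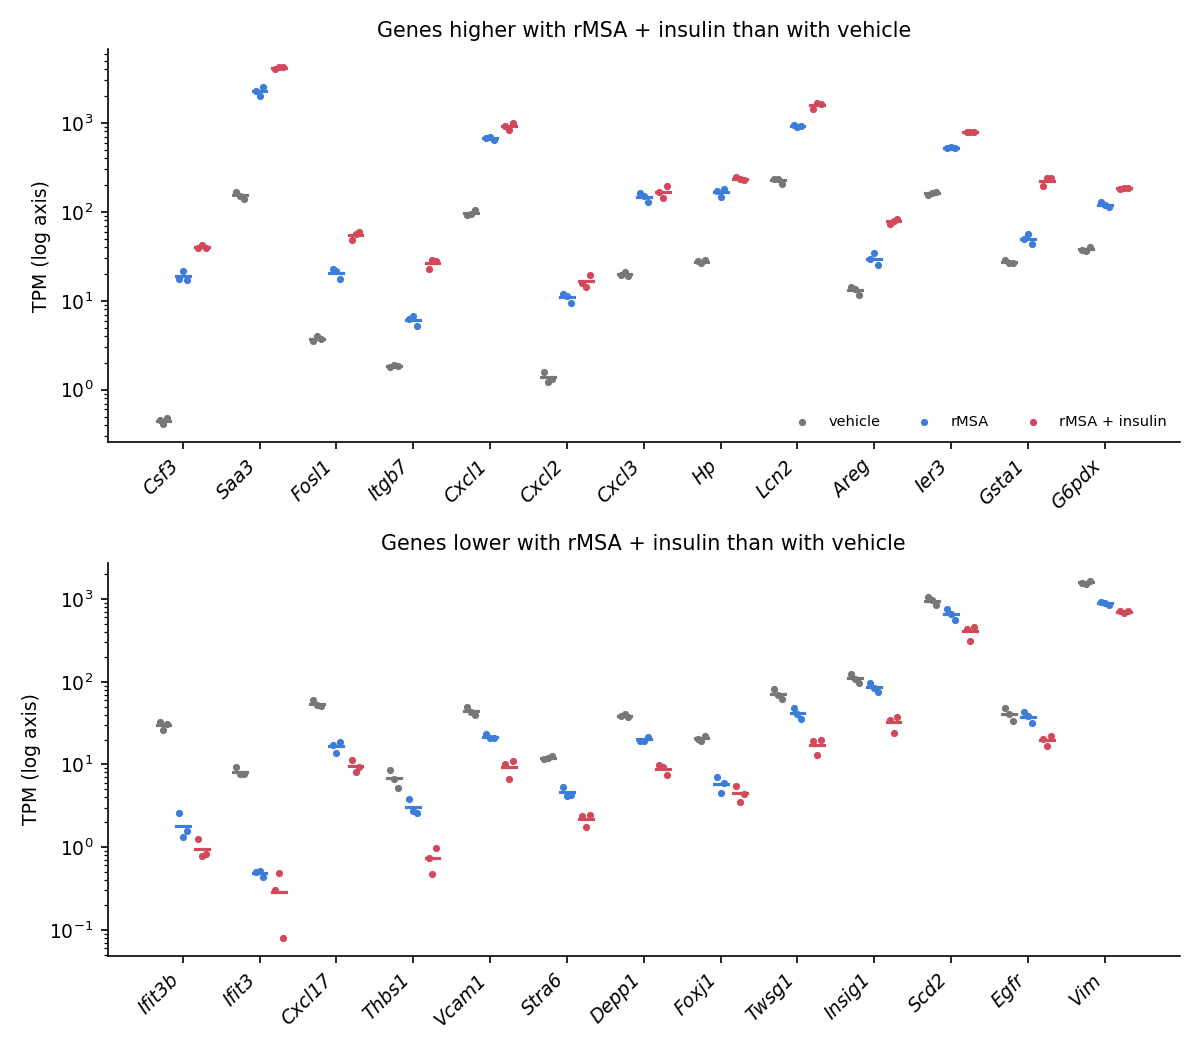
TPM on a log axis of genes that rose (upper panel) and fell (lower panel), 1 point for each of 3 libraries with vehicle, rMSA and rMSA + insulin and a bar for the mean. Vehicle and rMSA + insulin do not overlap for any gene shown, from Csf3 (0.41 to 0.48 against 38.9 to 41.9 TPM) to Vim. Many were named as the largest rises and falls, for which lack of overlap was required.

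Cytokine receptors and regulators of NF-κB moved in both directions. Of 22 tested receptor genes of the interleukin 1, 6 and 17 and TNF families (of 35 listed), 11 rose and 4 fell. The median log2 fold change was 0.27, and 1 was called higher and 1 lower, beside 1.98% and 3.05% of all tested genes. Tnfrsf1a, the main TNF receptor, rose from 70.96 ± 1.52 to 119.9 ± 0.848 TPM, and Tnfrsf12a, the receptor of the cytokine TWEAK, from 273 ± 14.6 to 504 ± 10.6 TPM (log2 fold changes 0.75 and 0.88, adjusted p = 3.33e-05 and 2.09e-05 by limma). The death receptor gene Fas (28.6, 63.2 and 51.2 TPM with vehicle, rMSA and both) and Tnfrsf9 (24.1, 68.3 and 54.2 TPM) rose against vehicle but were lower than with rMSA alone, by log2 differences of -0.30 and -0.33 (adjusted p = 0.00378 and 0.00617 by limma). With median centring these differences were -0.09 and -0.12 and did not pass (adjusted p = 0.293 and 0.0926 by limma). Of 32 tested NF-κB subunits and regulators, 14 rose and 8 fell, with a median log2 fold change of 0.12. Those that rose were led by Zc3h12a, a nuclease that degrades cytokine mRNA, from 18.1 ± 1.57 to 58.1 ± 2.93 TPM (log2 fold change 1.63, SE 0.08, adjusted p = 9.07e-06 by limma). Irak3, an inhibitor of interleukin 1 receptor signaling, rose by a log2 of 1.14, the inhibitor gene Nfkbib by 0.88 and the adaptor gene Traf2 by 0.74 (adjusted p = 1.08e-04, 6.96e-05 and 9.60e-05 by limma). Inhibitors of the pathway thus stood beside an adaptor among the members that rose.

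The JAK-STAT3 list had 5 members that rose and 10 that fell among 27 tested (6 and 9 with the length trend removed), with a median log2 fold change of -0.29. Pim3, a kinase whose gene is a STAT target, rose from 48.8 ± 2.26 to 79.9 ± 3.61 TPM, and Socs1, a feedback inhibitor of JAK, from 0.517 ± 0.0751 to 1.99 ± 0.237 TPM (log2 fold changes 0.70 and 0.98, adjusted p = 1.33e-04 and 3.21e-04 by limma). The kinase gene Jak1 fell from 54.5 ± 5.2 to 27.1 ± 5.44 TPM and Pias1, an inhibitor of STAT, from 17.9 ± 1.79 to 9.23 ± 1.9 TPM (log2 fold changes -0.998 and -0.90, adjusted p = 9.21e-04 and 0.00155 by limma). With the length trend removed the log2 fold changes of Jak1 and Pias1 were -0.78 and -0.63.

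Interferon-stimulated genes, many of them encoding antiviral proteins, split. Of 30 tested (61 listed), 9 rose and 16 fell, or 9 and 15 with the length trend removed, with a median log2 fold change of -0.29. Of the 30, 5 were called lower and 1 higher, beside 3.05% and 1.98% of all tested genes. Ifit3b was at 32.5, 25.9 and 30.4 TPM with vehicle and 1.26, 0.79 and 0.82 TPM with rMSA + insulin, and its near-copy Ifit3 at 9.25, 7.59 and 7.68 TPM with vehicle and 0.3, 0.48 and 0.08 TPM with rMSA + insulin. The log2 fold changes were -3.97 for Ifit3b and -2.84 for Ifit3 (adjusted p = 1.20e-06 and 8.87e-06 by limma). Reads of these near-identical genes may be split between them. With rMSA alone they were already low, at means of 1.81 and 0.487 TPM, and the difference from the combined treatment passed for Ifit3b (log2 -0.51, adjusted p = 0.0294 by limma) but not Ifit3 (log2 -0.22, adjusted p = 0.178 by limma). That of Ifit3b did not pass with median centring (-0.30, adjusted p = 0.106 by limma), quantile normalization (-0.33, adjusted p = 0.0762 by limma) or 5 TPM added (-0.19, adjusted p = 0.097 by limma). Uba7, the enzyme that activates the ubiquitin-like ISG15, fell from 4.93 ± 0.215 to 1.69 ± 0.321 TPM (log2 fold change -1.14, SE 0.12, adjusted p = 2.37e-04 by limma). Oasl1 rose from 1.62 ± 0.339 to 5.72 ± 0.22 TPM (log2 fold change 1.37, SE 0.12, adjusted p = 1.23e-04 by limma).

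Antigen presentation was likewise mixed, with 10 of 20 tested genes rising and 6 falling and a median log2 fold change of 0.25. Cd74, the invariant chain of MHC class II, rose from 2.59, 2.46 and 1.74 TPM with vehicle to 11.7, 13.6 and 13.1 TPM with rMSA + insulin, a log2 fold change of 2.09 (SE 0.13, adjusted p = 2.55e-05 by limma). Its level with rMSA alone was 4.58, 3.2 and 2.85 TPM, and the combined treatment was higher by a log2 difference of 1.62 (SE 0.16, adjusted p = 2.08e-04 by limma). The class I heavy chain gene H2-D1 rose from 179 ± 2.83 to 305 ± 8 TPM, whereas B2m, the light chain that every class I molecule needs, fell from 1857 ± 206 to 1149 ± 71.2 TPM (log2 fold changes 0.77 and -0.69, adjusted p = 2.09e-05 and 5.02e-04 by limma). B2m stood at 2000.5 ± 109 TPM with rMSA alone, and its difference from the combined treatment was a log2 of -0.80 (SE 0.08, adjusted p = 2.72e-04 by limma). The immunoproteasome gene Psmb10 fell with a log2 fold change of -0.56 (SE 0.08, adjusted p = 0.00121 by limma).

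The EGFR ligand genes Areg and Ereg rose while Egfr itself fell. Amphiregulin (Areg), a ligand shed from the cell surface, was at 14.1, 13.7 and 11.7 TPM with vehicle and 72.3, 79.9 and 82.8 TPM with rMSA + insulin, a log2 fold change of 2.49 (SE 0.09, adjusted p = 1.77e-06 by limma). The combined level was above that with rMSA alone (29.8, 34.2 and 25.1 TPM) by a log2 difference of 1.38 (SE 0.11, adjusted p = 1.09e-04 by limma). Epiregulin (Ereg) rose from 2.94 ± 0.335 to 12.4 ± 3.02 TPM and Lrig1, which limits EGFR, from 14.8 ± 0.933 to 36.4 ± 6.73 TPM (log2 fold changes 1.75 and 1.23, adjusted p = 1.62e-04 and 2.83e-04 by limma). With rMSA alone Ereg and Lrig1 averaged 9.45 and 40.8 TPM. Their differences from the combined treatment did not pass (log2 0.36 and -0.17, adjusted p = 0.137 and 0.293 by limma). That of Ereg did with median centring (0.56, adjusted p = 0.00328 by limma). Egfr itself was at 47.5, 41.2 and 33.97 TPM with vehicle, 43.1, 38.6 and 31.4 TPM with rMSA and 20.1, 16.7 and 21.8 TPM with both. The vehicle and rMSA libraries overlapped, those with both treatments lay below them, and the log2 fold change against vehicle was -1.02 (SE 0.14, adjusted p = 7.39e-04 by limma). With the length trend removed it was -0.60 (adjusted p = 1.13e-04 by limma), the longest Egfr transcript having 10208 bases. Cav1, the caveolin that binds EGFR, and Cavin1, a coat protein of caveolae, fell with log2 fold changes of -0.62 and -0.64 (adjusted p = 5.28e-04 and 3.94e-04 by limma). The kinase gene Src was at 49.1, 45.3 and 43.6 TPM with vehicle and 35.7, 28.1 and 38.5 TPM with rMSA + insulin, a log2 fold change of -0.43 (SE 0.12, adjusted p = 0.0144 by limma), which did not pass without vehicle library 1. Of 25 tested genes of the EGFR family, its ligands and inhibitors, 4 rose and 12 fell, with a median log2 fold change of -0.15, but 10 rose and 9 fell with the length trend removed, and 8 and 12 with median centring.

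ERK pathway feedback genes were led by Ier3, an early response gene that limits cell death, at 155, 164 and 169 TPM with vehicle and 795, 791 and 794 TPM with rMSA + insulin (log2 fold change 2.28, SE 0.05, adjusted p = 9.48e-08 by limma). Phlda1 (log2 fold change 1.69), the ETS factor gene Etv4 (1.34) and Dusp5, a nuclear phosphatase of ERK (1.31), rose as well (adjusted p = 7.14e-06, 2.55e-05 and 1.52e-04 by limma). Against rMSA alone Ier3 and Dusp5 were higher (log2 0.59 and 0.37, adjusted p = 6.53e-05 and 0.0215 by limma). Etv4 was lower (-0.31, adjusted p = 0.00921 by limma) and Phlda1 did not pass (0.06, adjusted p = 0.557 by limma). With median centring Etv4 did not pass (-0.10, adjusted p = 0.374 by limma) and Phlda1 was higher (0.27, adjusted p = 0.00269 by limma). These members were named for their small p. Over the 35 tested members 9 rose and 11 fell, with a median log2 fold change of -0.02. The counts became 14 and 10 both with median centring and with the length trend removed. Fosl1, the AP-1 subunit FRA1, rose from 3.52, 3.98 and 3.75 TPM with vehicle to 48.3, 56.2 and 59.3 TPM, a log2 fold change of 3.54 (SE 0.10, adjusted p = 4.26e-07 by limma), and was higher than with rMSA alone (22.5, 21.8 and 17.5 TPM) by 1.37 (SE 0.11, adjusted p = 1.09e-04 by limma). Egr1, an immediate early factor, fell from 6, 4.99 and 4.08 to 1.62, 1.16 and 1.69 TPM (log2 fold change -1.27, SE 0.15, adjusted p = 4.14e-04 by limma) and stood at 1.45, 1.19 and 1.19 TPM with rMSA. Zfp36l1, which shortens the life of AU-rich mRNA, fell with a log2 fold change of -1.09 (SE 0.15, adjusted p = 8.42e-04 by limma). Over 24 tested AP-1 and immediate early genes, 7 rose and 9 fell, or 8 and 6 with median centring and 7 and 9 with the length trend removed, and the median log2 fold change was -0.08.

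Genes from the insulin receptor to AKT and FOXO1 gave 8 rises and 21 falls among 40 tested (46 listed), with a median log2 fold change of -0.38. With the length trend removed, 11 rose and 12 fell. The receptor genes Insr and Igf1r fell, from 9.72 ± 1.57 to 6 ± 0.884 TPM and 8.95 ± 0.202 to 5.08 ± 0.397 TPM in turn (log2 fold changes -0.61 and -0.71, adjusted p = 0.00833 and 8.41e-04 by limma). Their docking proteins Irs1 and Irs2 had log2 fold changes of -0.52 and -0.89 (adjusted p = 0.00534 and 0.00288 by limma). These are long transcripts, and with the length trend removed the log2 fold changes were -0.20 for Insr, -0.27 for Igf1r, -0.12 for Irs1 (adjusted p = 0.353 by limma) and -0.57 for Irs2. Akt1 was at 136, 137 and 137 TPM with vehicle and 151, 135 and 150.4 TPM with rMSA + insulin, and Akt2 at 57.6, 56.1 and 53.5 TPM with vehicle and 59.5, 50.7 and 63.1 TPM with rMSA + insulin. Both kinase genes overlapped between groups, with log2 fold changes of 0.09 and 0.05 (adjusted p = 0.236 and 0.673 by limma). Foxo1 likewise overlapped, at 5.53, 5.67 and 5.71 TPM with vehicle and 5.75, 4.61 and 5.13 TPM with rMSA + insulin (log2 fold change -0.11, SE 0.11, adjusted p = 0.404 by limma). Gsk3b, the kinase that holds back glycogen synthase, had a log2 fold change of -0.44 (SE 0.12, adjusted p = 0.0161 by limma), but -0.05 with the length trend removed.

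Pik3ip1, an inhibitor of PI3-kinase and a known FOXO target, fell from 30.2, 28.2 and 30.4 TPM to 9.69, 8.36 and 9.43 TPM, a log2 fold change of -1.59 (SE 0.09, adjusted p = 1.30e-05 by limma). It was at 16.9, 16.5 and 15.4 TPM with rMSA alone, from which the combined treatment differed by a log2 of -0.76 (SE 0.08, adjusted p = 3.63e-04 by limma). Pik3r2, a regulatory subunit of PI3-kinase, rose with a log2 fold change of 0.64 and Eif4ebp1, the translation repressor that mTORC1 inactivates, with 0.80 (adjusted p = 1.29e-04 and 8.57e-05 by limma). Of 28 tested FOXO targets and members of the IGF axis, 10 rose and 17 fell (10 and 17 with the length trend removed), with a median log2 fold change of -0.47. Depp1, a FOXO-induced regulator of autophagy, fell from 38.8, 40.5 and 37.2 TPM to 9.71, 9.27 and 7.47 TPM (log2 fold change -2.03, SE 0.11, adjusted p = 9.41e-06 by limma), with 19.1, 19.5 and 21.5 TPM under rMSA alone and a log2 difference of -1.11 (SE 0.10, adjusted p = 1.45e-04 by limma) from it. The binding protein gene Igfbp4 fell from 856 ± 33.7 to 468 ± 43.02 TPM (log2 fold change -0.87, adjusted p = 8.57e-05 by limma). Sod2, the mitochondrial superoxide dismutase, rose from 35.6 ± 0.173 to 88.9 ± 4.87 TPM and the cell cycle inhibitor gene Cdkn1a from 197 ± 8.72 to 371 ± 9.58 TPM (log2 fold changes 1.29 and 0.91, adjusted p = 7.07e-06 and 1.51e-05 by limma). The list thus held FOXO targets of both directions.

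Glycolysis and glucose entry rose in 18 of 29 tested genes (of 41 listed) and fell in 5, with a median log2 fold change of 0.27 beside -0.09 over all tested genes. Slc2a1, the glucose transporter GLUT1, was at 26.1, 26.7 and 22.6 TPM with vehicle, 46.9, 44.7 and 35.7 TPM with rMSA and 65.7, 61.95 and 73.9 TPM with both. The 3 groups did not overlap, and the log2 fold change against vehicle was 1.38 (SE 0.09, adjusted p = 3.21e-05 by limma) and against rMSA 0.66 (SE 0.11, adjusted p = 0.00218 by limma). Gapdh rose from 5662 ± 205 to 10499 ± 601 TPM, a log2 fold change of 0.89 (SE 0.06, adjusted p = 3.87e-05 by limma). Ldha, the lactate dehydrogenase subunit, the enolase gene Eno3 and Pkm, the pyruvate kinase of proliferating cells, rose with log2 fold changes of 0.70, 0.85 and 0.51 (adjusted p = 5.75e-05, 9.06e-05 and 2.43e-04 by limma). Their differences from rMSA alone did not pass (log2 0.07, 0.12 and 0.04, adjusted p = 0.277, 0.148 and 0.473 by limma). Those of Ldha and Eno3 did with median centring (0.28 and 0.33, adjusted p = 0.0262 and 0.0247 by limma). Pklr, the liver pyruvate kinase, was at 145, 142 and 147 TPM with vehicle and 124, 105 and 119 TPM with rMSA + insulin. Its log2 fold change was -0.32 (SE 0.07, adjusted p = 0.00596 by limma), and it did not pass with median centring. Hexokinase 1 (Hk1) rose by a log2 of 0.27 (SE 0.05, adjusted p = 0.00375 by limma). Hk2 was at 0.32, 0.3 and 0.25 TPM with vehicle and 0.52, 0.42 and 0.51 TPM with rMSA + insulin, below the minimum.

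Enzymes of gluconeogenesis and glycogen rose in 13 of 24 tested genes and fell in 5, none called, with a median log2 fold change of 0.23. Gaa, the lysosomal glucosidase of glycogen, and Mdh2, the mitochondrial malate dehydrogenase, had log2 fold changes of 0.40 and 0.29 (adjusted p = 3.73e-04 and 0.00127 by limma). Glycogenin (Gyg), which primes glycogen, fell from 37.3 ± 1.16 to 21.3 ± 2.61 TPM, and Phka2, a subunit of the kinase that activates glycogen breakdown, from 22.03 ± 0.511 to 12.3 ± 0.737 TPM (log2 fold changes -0.79 and -0.80, adjusted p = 4.77e-04 and 2.35e-04 by limma). Respiratory chain and ATP synthase genes rose in 44 of 75 tested cases and fell in 3, with a median log2 fold change of 0.26 (46 and 0 with median centring, 35 and 12 with the length trend removed). Uqcrq of complex III, Ndufs5 of complex I, Sdhb of complex II and the ATP synthase gene Atp5j rose by log2 fold changes of 0.92, 0.75, 0.73 and 0.59 (adjusted p = 1.87e-04, 1.60e-04, 1.70e-04 and 7.27e-05 by limma). Their levels were 452, 210.3, 267 and 423 TPM with rMSA + insulin against 238, 125, 161 and 280.5 TPM with vehicle.

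Sterol synthesis fell. Of 28 tested genes of cholesterol synthesis and SREBP2 (of 32 listed), 20 fell and 0 rose, with a median log2 fold change of -0.46, and with the length trend removed 20 fell and 0 rose, with median centring 17 and 0. Insig1, a sterol sensor that is itself a target of SREBP (gene 231070, chr5:28071412-28078662), was at 123, 109 and 97 TPM with vehicle, 97.9, 84.7 and 75.1 TPM with rMSA and 34.5, 23.99 and 37.99 TPM with both. The libraries with both treatments lay below all others, with a log2 fold change of -1.76 (SE 0.16, adjusted p = 1.34e-04 by limma) against vehicle and -1.41 (SE 0.16, adjusted p = 4.62e-04 by limma) against rMSA. Nsdhl, an enzyme late in the pathway, was at 198, 177 and 185 TPM with vehicle, 197, 169.9 and 164 TPM with rMSA and 119, 90.7 and 113 TPM with both (log2 fold change -0.80, SE 0.10, adjusted p = 5.66e-04 by limma), again with only the combined libraries set apart. Fdps and Tm7sf2, also enzymes of the pathway, fell, from 947 ± 33.4 to 663 ± 45.03 TPM and 91.9 ± 8.32 to 59.8 ± 4.01 TPM in turn (log2 fold changes -0.52 and -0.61, adjusted p = 4.21e-04 and 7.39e-04 by limma). Fdps and Tm7sf2 stood at 646 and 64.2 TPM with rMSA alone and did not pass against it (log2 differences 0.03 and -0.10, adjusted p = 0.623 and 0.338 by limma).

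Fatty acid synthesis and SREBP1 gave 4 rises and 14 falls among 32 tested genes (8 and 13 with the length trend removed), with a median log2 fold change of -0.12. The desaturase genes Scd1 and Scd2 fell, from 345 ± 43.6 to 145 ± 27.9 TPM and 959.7 ± 99.2 to 406 ± 79.2 TPM in turn (log2 fold changes -1.25 and -1.26, adjusted p = 3.87e-04 and 3.35e-04 by limma). Fads2, which makes polyunsaturated fatty acids, and Srebf1, the factor that insulin is known to raise in liver, fell with log2 fold changes of -1.02 and -0.88 (adjusted p = 1.11e-04 and 4.50e-04 by limma). Srebf1 was at 140.1, 138 and 126 TPM with vehicle, 101, 92.4 and 84.1 TPM with rMSA and 80.7, 60.7 and 77.9 TPM with both. Its log2 fold change with the length trend removed was -0.71.

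Genes of lipid droplets were among the rises. Plin2, which coats lipid droplets, was at 313, 317 and 306 TPM with vehicle and 950.1, 963 and 995 TPM with rMSA + insulin, a log2 fold change of 1.63 (SE 0.05, adjusted p = 3.71e-07 by limma). Hilpda, an inhibitor of lipolysis, was at 30.2, 29.9 and 27 TPM with vehicle and 81.02, 87 and 98.7 TPM with rMSA + insulin (1.58, SE 0.09, adjusted p = 1.24e-05 by limma). With rMSA alone Plin2 was at 879.6, 913 and 852 TPM and Hilpda at 67.04, 75.1 and 70.6 TPM, nearer to the combined treatment than to vehicle, and the log2 differences from rMSA were 0.14 and 0.32 (adjusted p = 0.0275 and 0.0108 by limma). Ppard, the lipid-sensing receptor PPARδ, and Etfb, which passes electrons from fatty acid oxidation, rose with log2 fold changes of 1.14 and 0.91 (adjusted p = 9.35e-05 and 4.38e-05 by limma). Over 44 tested genes of fatty acid oxidation, ketone bodies and lipid droplets, 13 rose and 12 fell, with a median log2 fold change of 0.04, and 20 and 10 with median centring. Acsbg1, an acyl-CoA synthetase, rose from 7.64, 9.26 and 8.22 TPM to 76.5, 91.7 and 83.5 TPM, a log2 fold change of 3.18 (SE 0.10, adjusted p = 6.45e-07 by limma), and was higher than with rMSA alone by 1.17 (SE 0.11, adjusted p = 1.72e-04 by limma).

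Amino acid synthesis and the integrated stress response rose in most cases: 33 of 43 tested genes (of 45 listed) passed upward, 1 fell and 9 did not pass. The median log2 fold change was 0.67, and 7 were called higher, beside 1.98% of all tested genes. With the length trend removed 37 of 42 rose, and with median centring 38 of 43. Nupr1, a stress-induced chromatin protein (gene 56312, chr7:126623246-126625470), was at 163, 181 and 167 TPM with vehicle, 180.3, 191 and 177 TPM with rMSA and 623, 763 and 670.1 TPM with both. The vehicle and rMSA libraries overlapped and those with both treatments were far above them, with a log2 fold change of 2.0002 (SE 0.08, adjusted p = 2.89e-06 by limma) against vehicle. Trib3, a pseudokinase that binds AKT and a target of ATF4, was at 78.9, 90.4 and 76.4 TPM with vehicle, 65.05, 86.8 and 60.99 TPM with rMSA and 178, 211 and 206 TPM with both (log2 fold change 1.27, SE 0.09, adjusted p = 3.72e-05 by limma). The stress factor gene Atf3 was at 33.1, 37.7 and 32.3 TPM with vehicle, 15.5, 17.1 and 14.7 TPM with rMSA and 46.3, 57.3 and 54.7 TPM with both. It was thus lowest with rMSA alone, and its log2 fold change was 0.60 (SE 0.10, adjusted p = 0.00175 by limma) against vehicle. Gdf15, a stress-induced hormone, and Atf5 rose against vehicle by log2 fold changes of 0.68 and 0.46 (adjusted p = 1.72e-04 and 8.22e-04 by limma).

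Enzymes of serine and glycine synthesis rose as well. Psph, the last enzyme of serine synthesis, went from 56.2, 59.1 and 62.5 TPM to 151, 157 and 160.1 TPM (log2 fold change 1.38, SE 0.06, adjusted p = 4.52e-06 by limma). Shmt2, the mitochondrial serine hydroxymethyltransferase, went from 153, 164 and 166 TPM to 299.5, 313 and 317 TPM (0.94, SE 0.05, adjusted p = 1.39e-05 by limma). Slc3a2, the heavy chain shared by several amino acid transporters, rose from 897 ± 54.9 to 1778 ± 69.9 TPM (log2 fold change 0.99, SE 0.06, adjusted p = 1.96e-05 by limma). Ddit4, an inhibitor of mTORC1, rose with a log2 fold change of 0.68 (SE 0.07, adjusted p = 2.20e-04 by limma).

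The endoplasmic reticulum list had 14 rises and 5 falls among 31 tested genes, none of the rises called and a median log2 fold change of 0.15, and 19 and 4 with the length trend removed. The chaperone genes Hspa5 and Hyou1 and the secreted factor gene Manf rose from 197 ± 0.857 to 284 ± 21.9, from 24.9 ± 0.92 to 46.99 ± 3.17 and from 160.3 ± 9.49 to 245 ± 3.19 TPM (log2 fold changes 0.52, 0.89 and 0.61, adjusted p = 4.02e-04, 9.09e-05 and 1.33e-04 by limma). Creld2, a chaperone of the same response, had a log2 fold change of 0.63 (SE 0.07, adjusted p = 2.47e-04 by limma).

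NRF2 targets and oxidative stress genes rose in 22 of 39 tested cases and fell in 4, with a median log2 fold change of 0.24. Of the 39, 10 were called higher and 2 lower, beside 1.98% and 3.05% of all tested genes. Gsta1, a glutathione transferase, was at 28.4, 26.9 and 26.5 TPM with vehicle, 49.99, 55.8 and 42.99 TPM with rMSA and 195, 238 and 237 TPM with both, a log2 fold change of 2.98 (SE 0.09, adjusted p = 4.26e-07 by limma) against vehicle and 2.15 (SE 0.10, adjusted p = 6.20e-06 by limma) against rMSA. Gm3776, a predicted gene of the same transferase cluster, rose by 3.15 (adjusted p = 9.41e-06 by limma), and near-identical members of this family may share reads. G6pdx, the enzyme that opens the pentose phosphate pathway and supplies NADPH, was at 37.5, 36.7 and 40.3 TPM with vehicle and 181, 184 and 185 TPM with rMSA + insulin (log2 fold change 2.24, SE 0.06, adjusted p = 2.69e-07 by limma). Gsta4 rose from 359 ± 19.3 to 1054 ± 17.5 TPM (log2 fold change 1.55, adjusted p = 1.20e-06 by limma). Sqstm1, the autophagy adaptor p62 and a target of NRF2, was at 1557, 1726 and 1633 TPM with vehicle, 1379, 1637 and 1361 TPM with rMSA and 2578, 2929.7 and 2838 TPM with both (log2 fold change 0.76, SE 0.07, adjusted p = 9.60e-05 by limma). Its vehicle and rMSA libraries overlapped, and its log2 difference from rMSA was 0.93 (SE 0.08, adjusted p = 1.13e-04 by limma).

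The list of the aryl hydrocarbon receptor and CYP1 genes had 6 rises and 2 falls among 12 tested, with a median log2 fold change of 0.36. Against rMSA alone 3 were higher and 6 lower, with a median log2 difference of -0.41. Cyp1a1, which oxidises aromatic compounds, was at 3.49, 2.56 and 3.18 TPM with vehicle, 37.3, 32.2 and 29.9 TPM with rMSA and 30.4, 20.2 and 27.5 TPM with both. Its log2 fold change was 2.72 (SE 0.16, adjusted p = 1.92e-05 by limma), and the difference from rMSA did not pass (log2 -0.35, SE 0.15, adjusted p = 0.0783 by limma). Aldh3a1 and Ugt1a6b, targets of this receptor, rose by log2 fold changes of 1.30 and 0.73 (adjusted p = 7.53e-05 and 2.00e-04 by limma). Aldh3a1 averaged 0.613 TPM with vehicle and 2.97 TPM with both, and its log2 fold change was 0.51 with 5 TPM added. Ugt1a6b shares exons with other genes of its cluster, so its reads may be split.

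Hepatocyte factors had more falls than rises. Of 24 tested hepatocyte transcription factors, 3 rose and 10 fell, beside 22.4% and 31.6% of all tested genes. The counts were 5 and 13 with the length trend removed and 7 and 9 with median centring. In the main fit 3 were called lower, beside 3.05% of all tested genes, and the median log2 fold change was -0.27. Hnf4a, the central factor of hepatocyte identity, was at 110.3, 105 and 108 TPM with vehicle and 90.9, 66.1 and 86.04 TPM with rMSA + insulin (log2 fold change -0.42, SE 0.11, adjusted p = 0.0139 by limma). Hhex fell from 87.4 ± 9.89 to 40.7 ± 6.95 TPM, Sox4 from 103 ± 16.9 to 47.1 ± 9.75 TPM and Prox1 from 5.34 ± 0.698 to 2.28 ± 0.495 TPM, all of them factors of liver or duct development (log2 fold changes -1.09, -1.12 and -0.96, adjusted p = 4.72e-04, 0.00101 and 0.00126 by limma). With the length trend removed these were -0.96, -0.91 and -0.58. Of 27 tested hepatocyte products (77 listed, 60 in the table), 11 rose and 5 fell, with a median log2 fold change of 0.22. Retinol-binding protein 4 (Rbp4), the urea cycle enzyme gene Asl and the bile acid enzyme gene Cyp27a1 rose by log2 fold changes of 0.42, 0.59 and 0.74 (adjusted p = 3.50e-04, 2.21e-04 and 2.58e-04 by limma). Itih2, a plasma protease inhibitor chain, fell from 25.4 ± 2.14 to 12.1 ± 0.988 TPM (log2 fold change -1.004, adjusted p = 1.72e-04 by limma). Alb, the gene of the protein added to the medium, overlapped between groups at 69.2, 48.2 and 57.3 TPM with vehicle and 66.9, 33.4 and 47.3 TPM with rMSA + insulin (log2 fold change -0.28, SE 0.23, adjusted p = 0.33 by limma). Of the other checked markers, transferrin (Trf) and Krt18 rose while Ttr fell, with log2 fold changes of 0.46, 0.22 and -0.94 (adjusted p = 8.55e-04, 0.014 and 0.014 by limma).

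Epithelial and matrix genes had rises and falls in even numbers. Of 23 tested epithelial keratin, squamous and cilia genes 8 rose and 8 fell (median log2 fold change 0.06), or 7 and 9 with the length trend removed and 9 and 6 with median centring. Of 38 tested matrix, protease and integrin genes 14 rose and 14 fell (median 0.03), or 18 and 9 with the length trend removed and 19 and 10 with median centring. Sprr1a, a component of the cornified envelope of skin, rose from 2.59, 2.89 and 3.75 TPM to 65.99, 53.5 and 61.3 TPM (log2 fold change 3.91, SE 0.13, adjusted p = 1.07e-06 by limma). Its relative Sprr2h rose from 0, 0.12 and 0 to 5.85, 7.26 and 9.79 TPM (3.03, SE 0.17, adjusted p = 1.28e-05 by limma). Sprr2h was listed at 0 in 2 vehicle libraries and belongs to a family of close copies. The intermediate filament gene Vim fell from 1572, 1539.7 and 1668 TPM to 724, 677 and 721 TPM (log2 fold change -1.17, SE 0.05, adjusted p = 4.96e-06 by limma). Foxj1, the factor of motile cilia, fell from 20.6, 19.1 and 22.1 to 5.44, 3.52 and 4.42 TPM (-1.996, SE 0.14, adjusted p = 3.98e-05 by limma). Itgb7, an integrin subunit best known from lymphocytes, rose from 1.79, 1.92 and 1.87 TPM to 22.8, 28.9 and 27.9 TPM, with 6.21, 6.72 and 5.25 TPM under rMSA alone, a log2 fold change of 3.26 (SE 0.11, adjusted p = 1.42e-06 by limma). Ptprc was near 0 in the same libraries, as given above. The laminin gene Lamb3 rose from 44.1 ± 1.72 to 79.01 ± 3.64 TPM (log2 fold change 0.83, adjusted p = 6.33e-05 by limma). The cell adhesion gene Vcam1 fell from 49.4, 42.9 and 39.3 to 10.1, 6.62 and 11.1 TPM (log2 fold change -2.15, SE 0.17, adjusted p = 7.68e-05 by limma) and Thbs1, a matrix protein that activates TGF-β, from 8.48, 6.69 and 5.25 to 0.74, 0.47 and 0.98 TPM (-2.16, SE 0.18, adjusted p = 8.34e-05 by limma).

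Other genes among the largest falls were Stra6, the receptor of retinol-binding protein, from 12.1 ± 0.617 to 2.18 ± 0.386 TPM, Twsg1, which binds bone morphogenetic proteins, from 71.2 ± 9.77 to 17.3 ± 3.84 TPM, and the kinase gene Map4k3, from 54.3 ± 9.88 to 13.2 ± 4.22 TPM. Their log2 fold changes were -2.04, -1.99 and -1.99 (adjusted p = 1.75e-05, 8.57e-05 and 3.35e-04 by limma). Zbed6, which lies inside another gene so that reads may be shared, was at 10.8, 6.79 and 3.33 TPM with vehicle and 0.38, 0.21 and 0.96 TPM with rMSA + insulin (log2 fold change -2.31, SE 0.34, adjusted p = 0.00114 by limma). Zfp966, a zinc finger gene, was at 25.4, 17.9 and 14.9 TPM with vehicle and 13.2, 4.97 and 0 TPM with rMSA + insulin. Its log2 fold change of -2.18 (SE 0.81, adjusted p = 0.0498 by limma) did not pass in 12 of 19 other settings. Among the largest rises Gm42049, a predicted gene, varied widely, from 0, 1.11 and 8.91 TPM to 23.3, 47.9 and 31.9 TPM (log2 fold change 3.62, SE 0.72, adjusted p = 0.00415 by limma). Ptgs2, the prostaglandin synthase COX-2, rose from 1.26, 1.35 and 0.78 TPM to 16.3, 12.2 and 26.1 TPM (3.12, SE 0.25, adjusted p = 7.07e-05 by limma). With rMSA alone Ptgs2 was at 15.6, 14.3 and 9.09 TPM, and its difference from the combined treatment did not pass (log2 0.42, adjusted p = 0.193 by limma). It did with median centring (0.63, adjusted p = 0.0174 by limma) and with the length trend removed (0.67, adjusted p = 0.0102 by limma).

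Prostaglandin and arachidonate genes, Ptgs2 among them, gave 4 rises and 4 falls among 13 tested, with a median log2 fold change of 0.07. The synthases Ptgds and Hpgds, which make prostaglandin D, fell, from 416 ± 24.5 to 231 ± 27.5 TPM and 43.2 ± 3.6 to 23.04 ± 2.34 TPM in turn, and the prostaglandin transporter gene Slco2a1 from 209 ± 11.6 to 84.96 ± 13.5 TPM (log2 fold changes -0.85, -0.88 and -1.30, adjusted p = 2.18e-04, 2.99e-04 and 9.60e-05 by limma). COX-2 and the prostaglandin D synthases thus moved in opposite directions. Among 18 tested amino acid and ion transporters 4 rose and 7 fell (4 and 6 with the length trend removed, median log2 fold change -0.23). The iron transporter gene Slc11a2 and the glycerol channel gene Aqp9 rose, and the cationic amino acid exchanger gene Slc7a7 and the inositol transporter gene Slc5a3 fell, with log2 fold changes of 0.85, 1.32, -0.77 and -0.83 (adjusted p = 6.26e-05, 2.07e-04, 2.03e-04 and 8.70e-04 by limma). Aqp9 averaged 0.873 TPM with vehicle and Slc5a3 0.807 TPM with rMSA + insulin, so each entered through its higher group. With 5 TPM added their log2 fold changes were 0.56 and -0.31.

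Genes of albumin uptake and endocytosis gave 4 rises and 8 falls among 16 tested (4 and 7 with the length trend removed), with a median log2 fold change of -0.36. Stab1, a scavenger receptor that can bind modified albumin, rose from 0.42, 0.4 and 0.38 TPM to 2.22, 1.83 and 1.95 TPM (log2 fold change 1.10, SE 0.10, adjusted p = 1.41e-04 by limma), and Lgals3 and the dynamin gene Dnm2 rose by 0.63 and 0.59 (adjusted p = 2.26e-04 and 1.36e-04 by limma). Stab1 stood at 1.71 ± 0.085 TPM with rMSA alone. Cavin1, also on this list, was among the falls (log2 fold change -0.64, adjusted p = 3.94e-04 by limma). In the lysosome list 10 of 36 tested genes rose and 17 fell (median log2 fold change -0.19), or 10 and 9 with median centring and 10 and 16 with the length trend removed. The proteases Ctsl and Ctsz and the lysosomal factor gene Tfe3 rose by 0.62, 0.52 and 0.59 (adjusted p = 2.35e-04, 2.13e-04 and 2.98e-04 by limma). They were named for their small p, and the more numerous members that fell are not named here.

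In the clock list 3 of 18 tested genes rose and 9 fell (4 and 10 with the length trend removed), with a median log2 fold change of -0.26. Nr1d1, the repressor REV-ERBα, rose from 32.6 ± 2.14 to 67.4 ± 1.3 TPM and Arntl, the activator BMAL1, from 2.25 ± 0.388 to 6.39 ± 0.871 TPM (log2 fold changes 1.03 and 1.19, adjusted p = 3.09e-05 and 3.62e-04 by limma). The other rise was Nfil3, a clock repressor, with a log2 fold change of 0.70 (adjusted p = 7.80e-04 by limma). The more numerous clock members that fell are not named here. Glucocorticoid receptor targets gave 4 rises and 9 falls among 17 tested (6 and 9 with the length trend removed, median log2 fold change -0.21), with a rise of the factor gene Cebpd and a fall of Fam107a (log2 fold changes 0.57 and -1.01, adjusted p = 0.00289 and 9.05e-04 by limma). Fam107a averaged 1.96 TPM with vehicle and 0.463 TPM with rMSA + insulin, and its log2 fold change was -0.35 with 5 TPM added.

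Of 57 tested cell cycle and DNA replication genes, 7 rose and 29 fell, with a median log2 fold change of -0.33 (14 and 26 with the length trend removed, 12 and 24 with median centring). Cdk4 fell from 834 ± 14.9 to 646 ± 14.1 TPM and the mitotic motor gene Kif11 from 2.57 ± 0.25 to 0.747 ± 0.306 TPM, while the cyclin gene Ccnd3 rose from 40.6 ± 3.46 to 62.5 ± 2.87 TPM (log2 fold changes -0.37, -1.04 and 0.61, adjusted p = 4.60e-04, 8.31e-04 and 5.65e-04 by limma). Cdk4 did not pass with median centring. Of 31 tested p53 targets and apoptosis genes, 13 rose and 11 fell (14 and 11 with the length trend removed, median log2 fold change 0.04), with Phlda3, a repressor of AKT at the membrane, at a log2 fold change of 0.65 (SE 0.05, adjusted p = 6.90e-05 by limma). Ribosomal protein genes, 26 of 77 of which fell and 2 rose, had a median log2 fold change of -0.09, equal to that of all tested genes at 2 decimals, and gave 1 rise and 3 falls with median centring but 1 and 55 with the length trend removed. Rpl3, Rpl7 and Rpl6 fell, with log2 fold changes of -0.53, -0.57 and -0.47 (adjusted p = 1.14e-04, 3.35e-04 and 4.23e-04 by limma). Rpl23 had -0.30 (adjusted p = 0.00198 by limma), which was not past the threshold with median centring.

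Of the markers of other liver cells that reached 1 TPM, 2 of 3 leukocyte markers rose and 1 fell, and 1 of 2 endothelial markers rose. Csf1r, the macrophage receptor, fell from 2.8 ± 0.166 to 0.323 ± 0.0473 TPM while Cd68 rose from 4.64 ± 0.566 to 7.73 ± 0.296 TPM (log2 fold changes -1.52 and 0.63, adjusted p = 3.09e-05 and 0.00244 by limma). The endothelial marker Esam had a log2 fold change of 0.46 (SE 0.13, adjusted p = 0.02 by limma), which did not pass without rMSA + insulin library 1 (0.34), vehicle library 2 (0.46) or vehicle library 3 (0.43). Esam averaged 0.79 TPM with vehicle and 1.49 TPM with rMSA + insulin, and so entered through its higher group. Of 7 tested bile duct and progenitor markers 1 rose and 5 fell. Spp1, osteopontin, was at 201 TPM with vehicle, 690.3 TPM with rMSA and 406 TPM with both, and Cd24a at 548, 571 and 284 TPM. Their log2 fold changes against vehicle were 1.003 and -0.95, and that of Sox9 was -0.57 (adjusted p = 0.00108, 7.93e-04 and 0.00369 by limma).

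**Figure D4:**
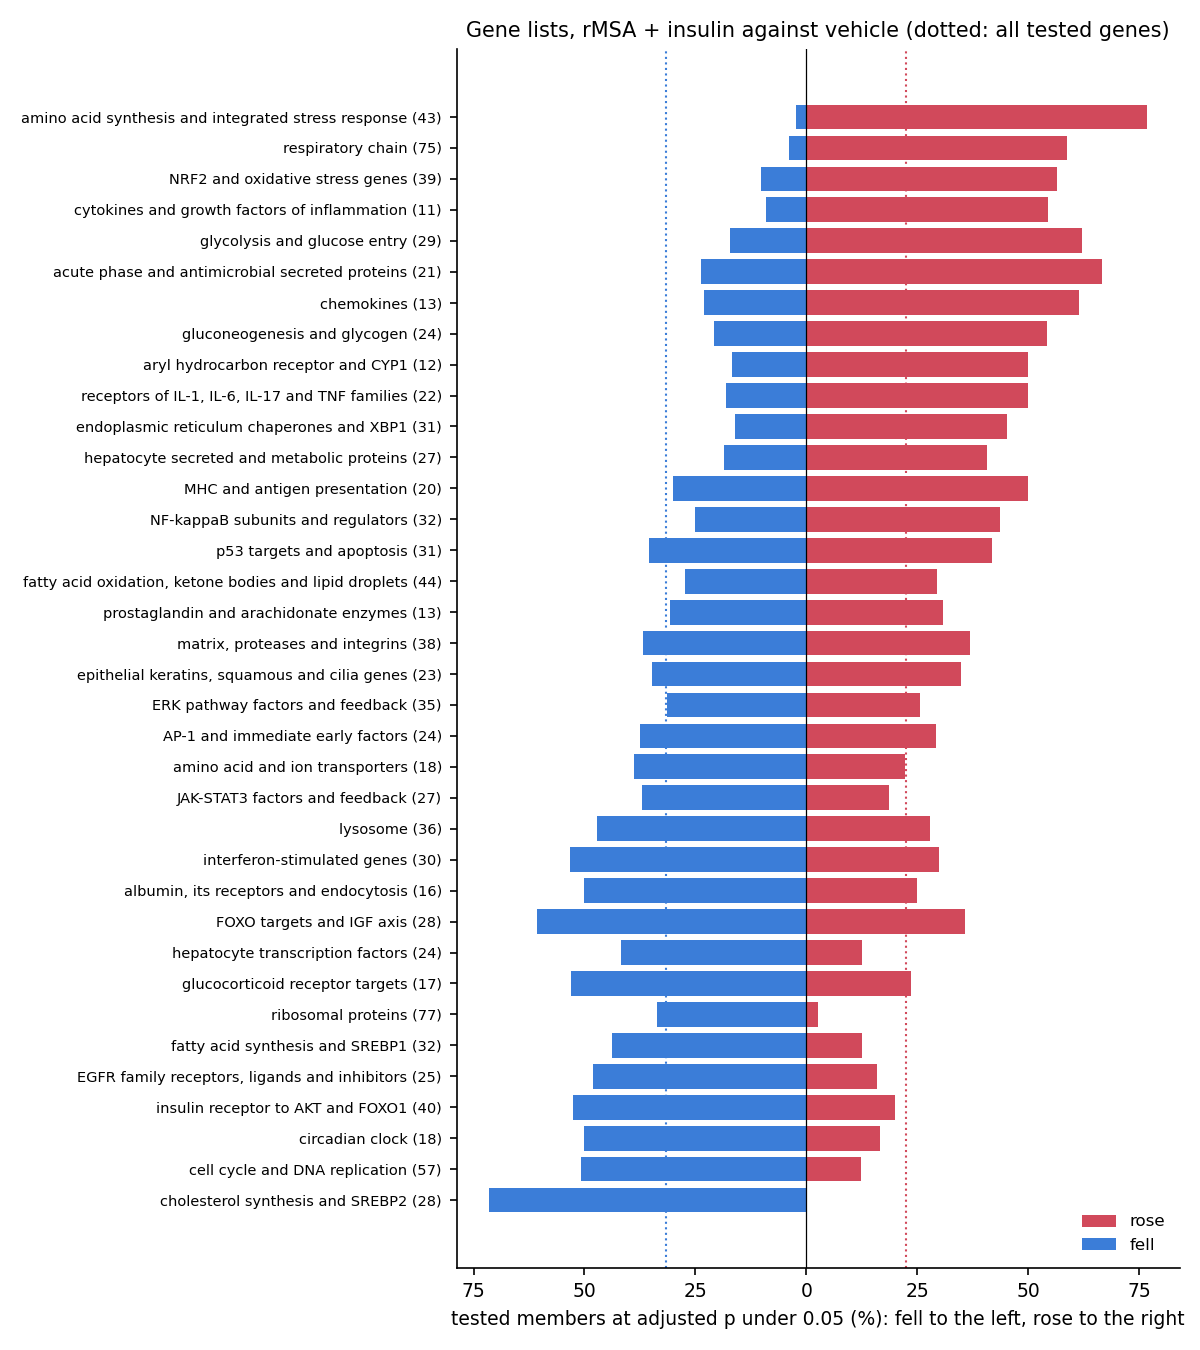
Share of the tested members of each gene list that rose (right) or fell (left) at an adjusted p under 0.05 between rMSA + insulin and vehicle, with the number tested in parentheses and dotted lines at the shares of all tested genes, 22.4% risen and 31.6% fallen. In the stress response list 33 of 43 rose, and in the cholesterol list 20 of 28 fell.

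The combined treatment was then tested against rMSA alone, in a fit of vehicle, rMSA and rMSA + insulin, to see how far the changes against vehicle exceeded those with rMSA. This comparison uses the same rMSA + insulin libraries as the comparison with vehicle. Of the 10819 genes 342 were called, 46 higher (0.425%) and 296 lower (2.74%) with rMSA + insulin, and 1566 (14.5%) were higher and 3958 (36.6%) lower at an adjusted p under 0.05. The median log2 difference was -0.15. Median centring gave 78 higher and 112 lower, quantile normalization 79 and 122, and removal of the length trend 56 and 78. Without rMSA + insulin library 2, 123 genes were lower, and without rMSA library 1, 161. Without rMSA + insulin library 3 they were 556, and without rMSA library 3, 526. Of 214 genes called higher against vehicle, 185 were also higher with rMSA alone than with vehicle at an adjusted p under 0.05. Against rMSA 112 of the 214 were higher (31 called) and 20 lower. Of 330 called lower against vehicle, 102 were also lower with rMSA alone and 228 did not pass there. Against rMSA 303 of the 330 were lower and 2 higher. These genes were picked on the same libraries, so the counts only describe them.

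Of the 43 tested stress response genes, 30 were higher and 1 lower with rMSA + insulin than with rMSA alone (38 and 1 with the length trend removed), with a median log2 difference of 0.52. The log2 differences were 1.90 (SE 0.08, adjusted p = 2.13e-06 by limma) for Nupr1 and 1.68 (SE 0.10, adjusted p = 1.76e-05 by limma) for Atf3. For Trib3 and Gdf15 they were 1.48 (SE 0.13, adjusted p = 1.13e-04 by limma) and 1.14 (SE 0.08, adjusted p = 3.81e-05 by limma). Smaller differences were found for Psph (0.82), Shmt2 (0.72), Eif4ebp1 (0.71) and Atf5 (0.59), with limma adjusted p of 9.74e-05, 5.45e-05, 1.85e-04 and 5.29e-04. Gdf15 was at 27.3, 26.8 and 25.3 TPM with vehicle, 17.8, 21.01 and 18.1 TPM with rMSA and 42.9, 42.1 and 43.5 TPM with both. For Atf3 and Gdf15 every rMSA library lay below the vehicle libraries and every rMSA + insulin library above them.

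Angptl6, a secreted angiopoietin-like factor, showed the same pattern, with 15.4, 14.4 and 12.9 TPM with vehicle, 6.75, 8.57 and 6.25 TPM with rMSA and 32.6, 43.3 and 38.3 TPM with both (log2 difference from rMSA 2.26, SE 0.13, adjusted p = 1.76e-05 by limma). Cdsn, an adhesion protein of skin, was at 16.8, 17.7 and 15.8 TPM with vehicle, 6.21, 9.38 and 5.83 TPM with rMSA and 44.5, 55.8 and 50.5 TPM with both (log2 difference 2.67, SE 0.15, adjusted p = 1.76e-05 by limma). Car6, a secreted carbonic anhydrase, was at 3.36, 3 and 3.47 TPM with vehicle, 1.31, 2.65 and 0.56 TPM with rMSA and 13.6, 22.4 and 21.9 TPM with both (log2 difference 3.07, SE 0.28, adjusted p = 1.45e-04 by limma). In these genes rMSA alone lay below vehicle and the combined treatment above it. Try5, a trypsin gene with close copies, was lowest in the rMSA libraries, at 17.03, 19.7 and 17.5 TPM with vehicle, 2.55, 4.29 and 3.04 TPM with rMSA and 17.1, 22.7 and 23.4 TPM with both (log2 difference 2.37, SE 0.16, adjusted p = 3.81e-05 by limma). The Try5 difference between rMSA + insulin and vehicle did not pass (log2 0.20, SE 0.13, adjusted p = 0.215 by limma). The predicted genes Gm42049 and Gm42427 also differed from rMSA, by 2.76 and 2.58 (adjusted p = 0.00939 and 0.0237 by limma). Gm42427 was at 1.61, 9.6 and 51.2 TPM in the rMSA libraries, and it did not pass without rMSA library 1 (1.52), rMSA library 2 (2.53), rMSA + insulin library 1 (2.58) or rMSA + insulin library 2 (2.48).

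**Figure D5:**
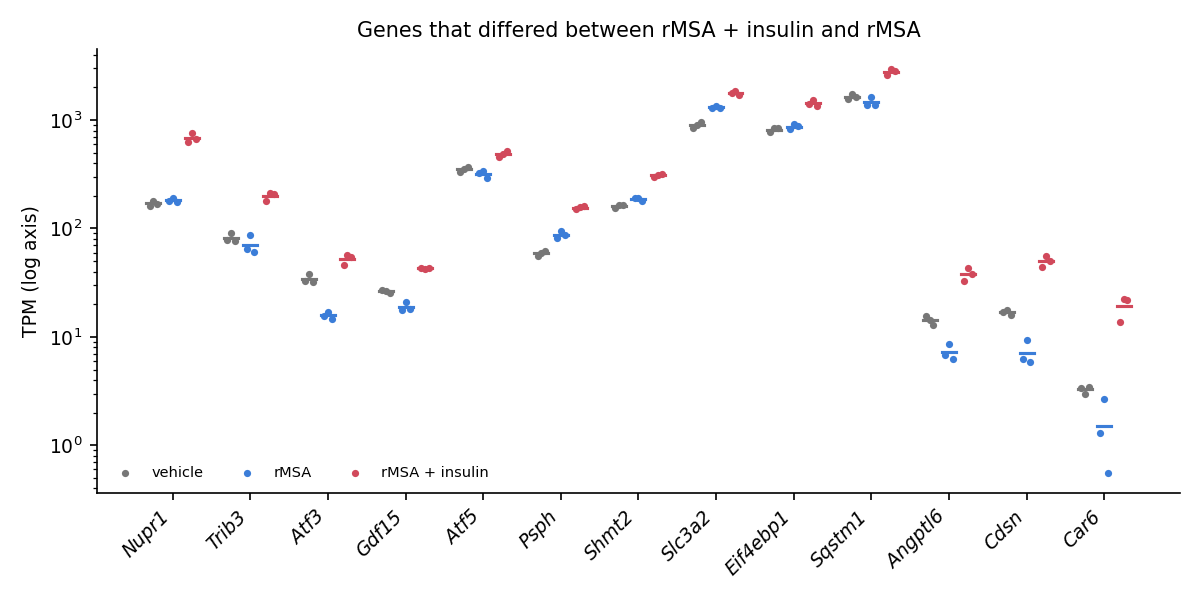
TPM on a log axis of 13 genes that were higher with rMSA + insulin than with rMSA alone, 1 point for each of 3 libraries with vehicle, rMSA and rMSA + insulin and a bar for the mean. The rMSA + insulin libraries lie above all others for each gene, and Atf3, Gdf15, Angptl6, Cdsn and Car6 are lower with rMSA than with vehicle.

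Among the largest differences below rMSA were Zbed6 (-2.52), Gm14305 (-2.17), Gm52236 (-2.08), the mitochondrial carrier gene Slc25a30 (-2.01), the sulfate transporter gene Slc26a2 (-1.90) and the polymerase gene Tnks (-1.87), with limma adjusted p of 0.00186, 0.00124, 0.00419, 0.00207, 0.0011 and 0.00305. Slc25a30 was at 37.96, 32.2 and 19.7 TPM with rMSA and 7.18, 3.47 and 10.3 TPM with both, and Slc26a2 at 48.7, 39.4 and 27.2 TPM with rMSA and 9.75, 6.46 and 12.6 TPM with both. The spread among libraries of these genes was wide in every group, with 34.04, 30.4 and 20.5 TPM for Slc25a30 and 9.87, 7.52 and 3.9 TPM for Tnks in the vehicle libraries, and the third library of each of the vehicle and rMSA groups was the lowest of its group. The same 2 libraries were the lowest of their groups in the class of the longest transcripts. With the length trend removed the log2 differences were -1.84 for Slc25a30, -1.45 for Slc26a2 and -1.40 for Tnks.

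By group, cholesterol synthesis had 23 of 28 genes lower than with rMSA and 0 higher (18 and 1 with the length trend removed), and cell cycle genes 41 of 57 lower and 2 higher (36 and 5). The list from the insulin receptor to AKT had 22 of 40 lower and 6 higher, but 9 lower and 12 higher with the length trend removed. Over all 10542 genes with a known length, 2954 were lower and 2994 higher with that trend removed. The acute phase list had 8 of 21 genes higher and 6 lower (9 and 6 with the length trend removed), and chemokines 3 of 13 higher and 5 lower (4 and 5). Glycolysis had 6 of 29 higher and 5 lower, but 11 and 4 with the length trend removed. Respiratory chain genes had 32 of 75 higher and 4 lower (25 and 7), and ribosomal protein genes 20 of 77 higher and 3 lower (13 and 6).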

How the data were processed

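RNA was sequenced from AML12 cells on a BGISEQ-500 after ribosomal RNA depletion according to the study's methods, whereas the labels name oligo(dT). The submitters' processing notes list Trimmomatic 0.33, STAR 2.5.2b, featureCounts, Subread 1.6.0 and the build GRCm38. Annotation, strand setting and the way TPM were computed: not given in the sources used here. The authors deposited 1 table of TPM for all AML12 libraries, rounded to 2 decimals, which holds no counts, so no count test could be run. TPM divides by transcript length and sets each library to the same total, so a rise of abundant mRNAs lowers the share of all others.

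Genes averaging 1 TPM or more in the 6 libraries were tested on log2(TPM + 1) with limma 3.58.1 (R 4.3.3, intensity trend), rMSA + insulin against vehicle in a fit of these 6 libraries and rMSA + insulin against rMSA in a fit of 9. p-values were Benjamini-Hochberg adjusted over all 10819 genes. Called genes had an adjusted p under 0.05 with a log2 change of 1 or more either way, and list members rose or fell where the adjusted p alone passed. Lengths were those of the longest GENCODE transcript of the same symbol, and positions came from RefSeq GRCm38.p6 (10792 genes matched). The code was checked on simulated data. Groups were taken from the labels. The genes, lists and comparisons were chosen with earlier results of these data known. Named genes were the 12 largest rises and the 12 largest falls among called genes without overlap of the groups, up to 4 members of each of 41 lists with the smallest p, the signaling and glycolysis genes of the study's question, the 6 largest differences from rMSA in each direction, and the genes at the edge of the minimum. Some genes that this rule names are not reported here.

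Alternatives were 0.1 or 5 TPM added, no minimum or a minimum of 5 TPM, median centring, quantile normalization, rescaling without the 50 highest genes, robust empirical Bayes, array weights, a replicate block, other groups in the fit, no fold threshold and leaving out each library. Removal of the length trend (a lowess curve of span 0.3 for each library) was added after seeing the data. The deviations of same-numbered vehicle and rMSA + insulin libraries correlated at 0.05, -0.07 and -0.55 across genes. Those of differently numbered libraries ran from -0.574 to 0.579. Such deviations include the length trend of each library, so they cannot show whether libraries were paired.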

Additional observations from a re-analysis of the deposited data

How the results depend on the processing

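Against vehicle, 544 genes were called, 214 higher and 330 lower. With 0.1 TPM added the total was 837 (524 lower), with 5 TPM added 236 (108 higher, 128 lower), and with no fold threshold 5833 (2419 higher, 3414 lower). The lower calls were 188 with all 12 AML12 libraries in the fit, 178 with the length trend removed and 196 with median centring. When single libraries were left out, the total ran from 396 to 749, the higher calls from 209 to 222 and the lower calls from 176 (without rMSA + insulin library 2) to 535 (without rMSA + insulin library 3). The other settings kept each count within 1.5 times.

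Against rMSA, 342 genes were called, 46 higher and 296 lower. The total was 589 with 0.1 TPM added (526 lower), 117 with 5 TPM added (27 higher, 90 lower), 51 with all 12 libraries (14 lower), 134 with the length trend removed (78 lower), 190 with median centring (78 higher, 112 lower), 201 with quantile normalization (79 higher, 122 lower) and 5524 with no fold threshold (1566 higher, 3958 lower). When single libraries were left out, the total ran from 164 to 606, the higher calls from 41 to 50 and the lower calls from 123 to 556, with 203 in total without rMSA library 1 and 571 without rMSA library 3.

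Fitting the replicate number as a block gave 545 calls against vehicle (215 higher, 330 lower) and 343 against rMSA (46 and 297), and changed the side of the threshold of no named gene, although the numbers mark no stated pairing. Of 189 named results past the threshold, 0 changed sign in any setting and 32 lost the threshold in at least 1, 28 of them with all 12 libraries in the fit, where the insulin-only libraries add to the estimate of spread. Among those that did not pass, Akt2 ran from -0.0196 (without rMSA + insulin library 3) to 0.136 (without rMSA + insulin library 2), and Foxo1 was at 0.284 with the length trend removed, 0.0279 with median centring and 0.0961 with quantile normalization. The causes of these movements were not tested. The depth of the libraries is unknown, and differences of genes near 1 TPM depend on the amount added before the log.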
